A study of Homo sapiens with 8 samples.

Results

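Homologous recombination copies a broken DNA stretch from an intact sister, and the Fanconi anaemia pathway unhooks crosslinks between the DNA strands and passes the break on to recombination. The genes of both routes were followed here in Saos-2, an osteosarcoma cell line without p53, after treatment with the compound the labels call Prima. The set holds 31 listed genes, and the members are the probe sets that the array annotation assigns to exactly 1 gene, that gene being on the list. By this rule 63 of 41091 such probe sets were members, and they measured 27 of the 31 genes. BRCA2, FANCA, FANCD2 and RBBP8 had no probe set of this kind and were not analysed here. All 27 measured genes passed the filter on low signal that left 12063 of 19775 genes in the whole series.

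All 8 arrays hold RNA of the same p53-null line. The groups are untreated cells (3 arrays, replicates 1 to 3), cells treated with Prima for 6 h (3 arrays, replicates 1 to 3) and cells treated with Prima for 12 h (2 arrays, replicates 1 and 3). The dose and vehicle are not given in the sources used here, the untreated arrays carry no time point, and every value comes from 1 cell line. The values are MAS5 signals, the brightness of a probe set on a linear scale after each array was brought to a common mean. Where a gene has several probe sets, the brightest stands for it unless another is named. Levels of the repair genes are compared only within a gene, because the signal of 1 probe set cannot be set against that of another. Signals of marker genes are summed only to describe an array, and such a sum leans on its brightest probe sets. In these bulk samples fewer cells of a type and less RNA per cell cannot be told apart.

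Recombination starts when the MRE11, RAD50 and NBN complex holds a DNA end and nucleases such as EXO1 chew back a strand. BRCA1 with BARD1 and BRIP1, joined through PALB2 to BRCA2, then act at the resected end, and XRCC2, XRCC3, RAD52 and the RAD54 proteins assist strand exchange. In the Fanconi route a core complex with the ubiquitin ligase FANCL marks FANCI and its partner at a crosslink, and ATR, ATM and their mediators signal the damage. Many of these genes are transcribed most in S and G2 phase, so their RNA is known to follow how many cells are cycling.

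The upstream sequence is shown because E2F factors are a textbook route by which S phase genes are switched on together. RefSeq promoter windows (GRCh38.p14, 250 bases before to 50 after the start site) were found for 24 of the 27 measured genes, 33 windows in all. FANCI, NBN and RAD54B had no window. The letters TTTCCCGC, TTTGGCGC, TTTCGCGC and TTTGCCGC, searched on both strands as E2F-type motifs, were present in 5 of 24 genes (20.8%). They were present in 3.99% of 27305 genes with a window and, counted by window, in 3.31% of all 35116 windows. The wider set was not limited to genes measured here, so these shares are of unlike sets, and their difference was not tested. Each match is shown with 20 bases on either side, 5′ to 3′ on the gene's own strand, with the motif or its reverse complement in capitals.
CLSPN, chr1:35769956-35770003, minus strand: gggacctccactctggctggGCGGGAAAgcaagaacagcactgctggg
EXO1, chr1:241848188-241848235, plus strand: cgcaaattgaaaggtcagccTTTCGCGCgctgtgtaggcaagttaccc
FANCC, chr9:95317728-95317775, minus strand: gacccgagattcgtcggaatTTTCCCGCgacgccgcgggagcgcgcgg
FANCC, chr9:95317854-95317901, minus strand: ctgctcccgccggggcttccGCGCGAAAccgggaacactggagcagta
TOPBP1, chr3:133661921-133661968, minus strand: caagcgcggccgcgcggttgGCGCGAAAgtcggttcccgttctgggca
XRCC2, chr7:152676093-152676140, minus strand: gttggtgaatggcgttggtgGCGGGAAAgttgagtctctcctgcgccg

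The CCAAT motif, the letters bound by the factor NF-Y, was present in 11 of 24 genes (45.8%), against 39.7% of all genes with a window. The letters TTTGAA, a cell cycle homology region type motif, were present in 3 of 24 genes (12.5%), against 18.2%. No match of 1 motif overlapped another in the members' windows. A match describes letters in a window and shows no binding. A window of BRCA1 and that of PALB2 follow as examples of a CCAAT match in genes described below. A second BRCA1 window (chr17:43170278-43170577) and the window of FANCG held none of the 3 motif types and are not printed. Capitals mark CCAAT, which lies on the opposite strand in PALB2 and so reads ATTGG.
BRCA1, chr17:43125315-43125614, minus strand: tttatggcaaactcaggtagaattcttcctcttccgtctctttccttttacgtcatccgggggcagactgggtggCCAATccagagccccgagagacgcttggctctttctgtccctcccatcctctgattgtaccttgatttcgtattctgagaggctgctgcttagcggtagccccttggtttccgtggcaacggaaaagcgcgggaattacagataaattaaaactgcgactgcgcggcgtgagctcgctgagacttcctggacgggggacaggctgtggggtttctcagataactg
PALB2, chr16:23641261-23641560, minus strand: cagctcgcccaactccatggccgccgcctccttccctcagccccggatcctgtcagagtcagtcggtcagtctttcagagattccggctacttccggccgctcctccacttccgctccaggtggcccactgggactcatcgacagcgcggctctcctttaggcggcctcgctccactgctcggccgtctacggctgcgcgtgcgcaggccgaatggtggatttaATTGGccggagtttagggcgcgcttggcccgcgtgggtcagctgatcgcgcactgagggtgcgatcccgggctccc

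The replicate 2 arrays stood apart before any gene was compared, and the 12 h group has no array of that number. Their median signals were 50.8 (untreated) and 47.5 (6 h), against 14.2 to 24.9 on the other 6 arrays. The ratio of 3′ to 5′ ACTB signal, a sign of RNA integrity, was 2.29 on the 12 h replicate 1 array, 1.73 on the 6 h replicate 1 array and at most 1.38 on the others. All 7 osteoblast-lineage markers with a probe set (RUNX2, SP7, ALPL, IBSP, SPP1, COL1A1 and COL1A2) were above the filter, with a summed signal of 4675 to 7827 per array. Most of the sum came from RUNX2 (1411 to 2350) and COL1A1 (2764 to 4801). IBSP (32.1 to 77.4), SPP1 (14.5 to 94.2) and COL1A2 (26.9 to 99.6) added little. Of the markers of other cells, 1 of 4 epithelial (EPCAM), 1 of 3 leukocyte (PTPRC) and 1 of 3 endothelial (PECAM1) genes were above the filter. On the untreated and 6 h replicate 2 arrays PTPRC gave 59.4 and 80.6, against 0.473 to 36.2 elsewhere. PECAM1 gave 130 and 143 there, against 13.7 to 40.5. EPCAM gave 26 on untreated replicate 2 and 122 to 245 on the others.

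Untreated cells gave the level of the repair genes and its spread. Across the 3 untreated arrays the highest signal of a gene was a median of 1.65 times its lowest, against 1.71 times for all 12063 genes. This ratio was over 2 in 9 of 27 repair genes (33.3%) and in 36.5% of all genes. By the brightest probe sets ATR, the kinase that answers stalled replication forks, was the steadiest, with untreated signals of 358, 305 and 327. Its other probe set above the filter gave 78.8, 49.3 and 148, the highest 3.01 times the lowest. RAD52, which anneals single strands, varied most, with untreated signals of 37.7, 37.8 and 7.25, the last far below the other untreated arrays.

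Much of that spread went with the replicate number. Both replicate 2 arrays had the lowest signals of all 8 arrays in 9 genes (33.3%, against 21.0% of all genes): RAD51C, RAD54B, FANCI, FANCL, BRIP1, XRCC2, PALB2, CHEK1 and TOPBP1. FANCL, the ligase of the core complex, shows this: untreated signals were 908, 411 and 844, 6 h signals 1091, 519 and 783, and 12 h signals 753 and 716. Both were highest in 3 genes (11.1%, against 17.1% of all genes), namely FANCB, FANCC and CLSPN. CLSPN, the mediator that lets ATR activate CHEK1, gave 96.7, 148 and 39.1 untreated, 40.1, 183 and 52.4 at 6 h, and 41.7 and 76.4 at 12 h. The median residual SD of the 27 genes around their group means was 0.407 on the log2 scale and 0.215 once the replicate number was fitted as a block, and it was smaller with the block in 22 of 27. For all genes it went from 0.451 to 0.290.

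**Figure D1:**
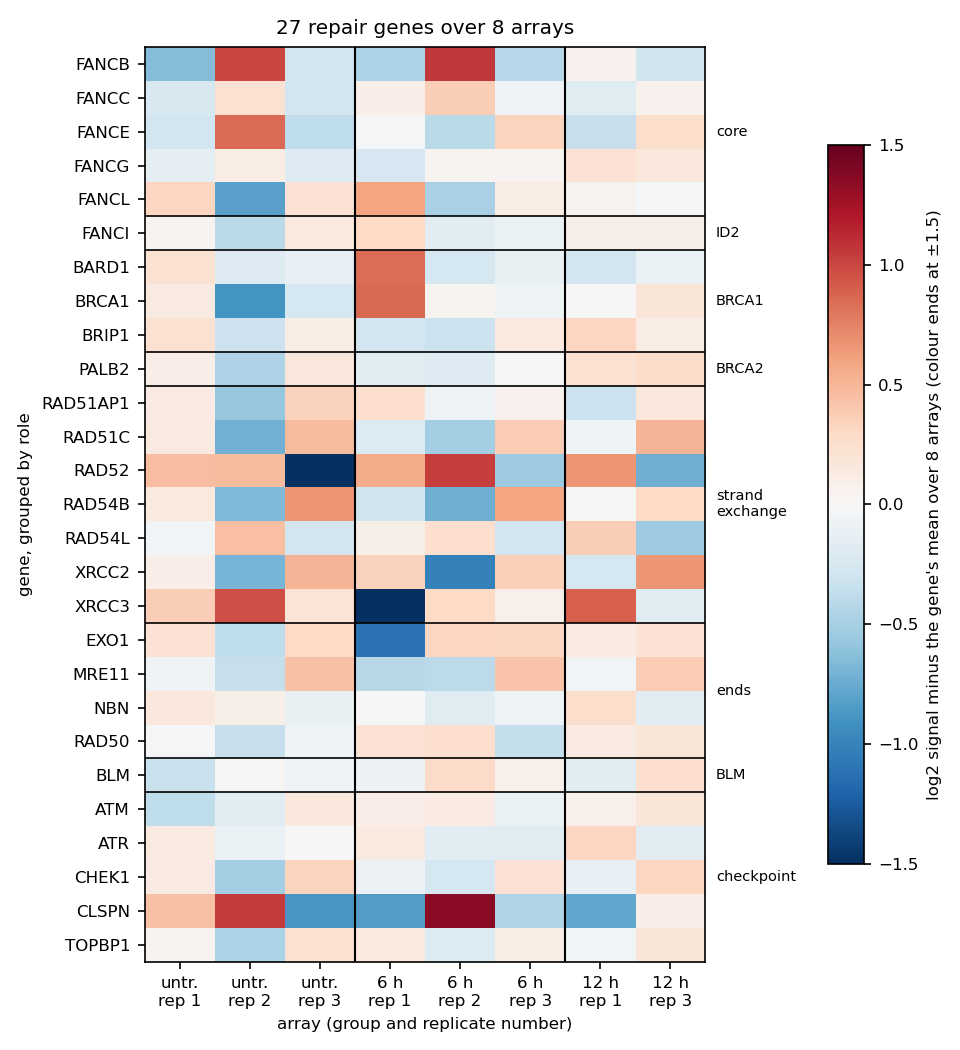
Log2 signal of each of the 27 measured repair genes on each of the 8 arrays, minus that gene's mean over the arrays; rows are grouped by role and columns by treatment, and the colour scale ends at ±1.5. The replicate 2 columns are the lowest of all arrays in 9 genes and the highest in 3, while no gene had all its 6 h arrays above or below all its untreated arrays.

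At 6 h of Prima the repair genes were as often below as above untreated cells. The log2 difference was above 0 in 13 of 27 genes, with a median of -0.02 and a range of -1.27 to 0.67, against 53.0% above 0 and a median of 0.02 for all genes. The median SE of a repair gene's difference was 0.33 on the log2 scale. None of the 27 passed limma's moderated test at an adjusted p under 0.05, and 0% of all genes did (smallest adjusted p = 0.99989). At an unadjusted p under 0.05 there were again 0 of 27, against 0.655% of all genes. No gene had all 6 h arrays above or all below the untreated arrays, a pattern seen in 2.03% and 1.51% of all genes.

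BRCA1, the scaffold that starts recombination, had the smallest p at 6 h. Its signals were 161, 79.0 and 122 in untreated cells and 266, 150.2 and 140.4 at 6 h, or 121 ± 41.0 (SD, n = 3) against 185 ± 69.7 (SD, n = 3). Replicate 1 was the highest array of each group, and the groups overlapped because untreated replicate 1 lay above both lower 6 h arrays. The log2 difference was 0.62 ± 0.35 SE (95% interval -0.13 to 1.37, limma adjusted p = 0.99989). Within arrays of the same number it was 0.72, 0.93 and 0.20. With the replicate number as a block in limma, BRCA1 came under an unadjusted p of 0.05, while its adjusted p was 0.831. Without the 6 h replicate 1 array the difference was 0.33, and without untreated replicate 2 it was 0.34. The other BRCA1 probe set, which is dimmer, gave 42.0, 67.4 and 71.7 untreated and 70.7, 42.4 and 62.5 at 6 h, a difference of -0.04.

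XRCC3, a strand exchange gene, had the lowest 6 h difference, and it came from a single array. Untreated signals were 36.0, 54.4 and 32.3, and 6 h signals were 4.51, 34.2 and 29.4. The difference was -1.27 ± 0.85 SE on the log2 scale (95% interval -3.11 to 0.57, limma adjusted p = 0.99989), and -0.33 without the 6 h replicate 1 array. That same array was the lowest of all 8 for EXO1, the resection nuclease, at 89.6 against 147.7 to 240.5 on the other arrays.

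BLM, the helicase that dissolves joined recombination intermediates, differed by 0.21 ± 0.27 SE at 6 h (limma adjusted p = 0.99989). Its signals were 161, 205 and 196 untreated and 190.3, 248 and 213 at 6 h, higher in each of the 3 same-numbered pairs but overlapping between groups. Its difference was 0.11 without untreated replicate 1 and also 0.11 without 6 h replicate 2. RAD52 differed by 0.67 ± 0.86 SE (limma adjusted p = 0.99989), from 40.0, 56.1 and 18.7 at 6 h against the untreated signals given above. Its difference was -0.12 without untreated replicate 3.

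The roles were mixed at 6 h. In the core complex 4 of 5 measured genes (FANCB, FANCC, FANCG and FANCL, but not FANCE) were above 0, with a median of 0.03. Of the strand exchange genes 2 of 7 (RAD51AP1 and RAD52) were above 0, and of the end-binding and resection genes 1 of 4 (RAD50). Among the kinases and mediators 2 of 5 were above 0, namely ATM at 0.17 and TOPBP1 at 0.09. CHEK1, the kinase that holds the cell cycle after ATR activation, was at -0.02. Except for XRCC3 (-1.27 ± 0.85 SE), the difference of each gene in these roles was smaller than its SE.

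**Figure D2:**
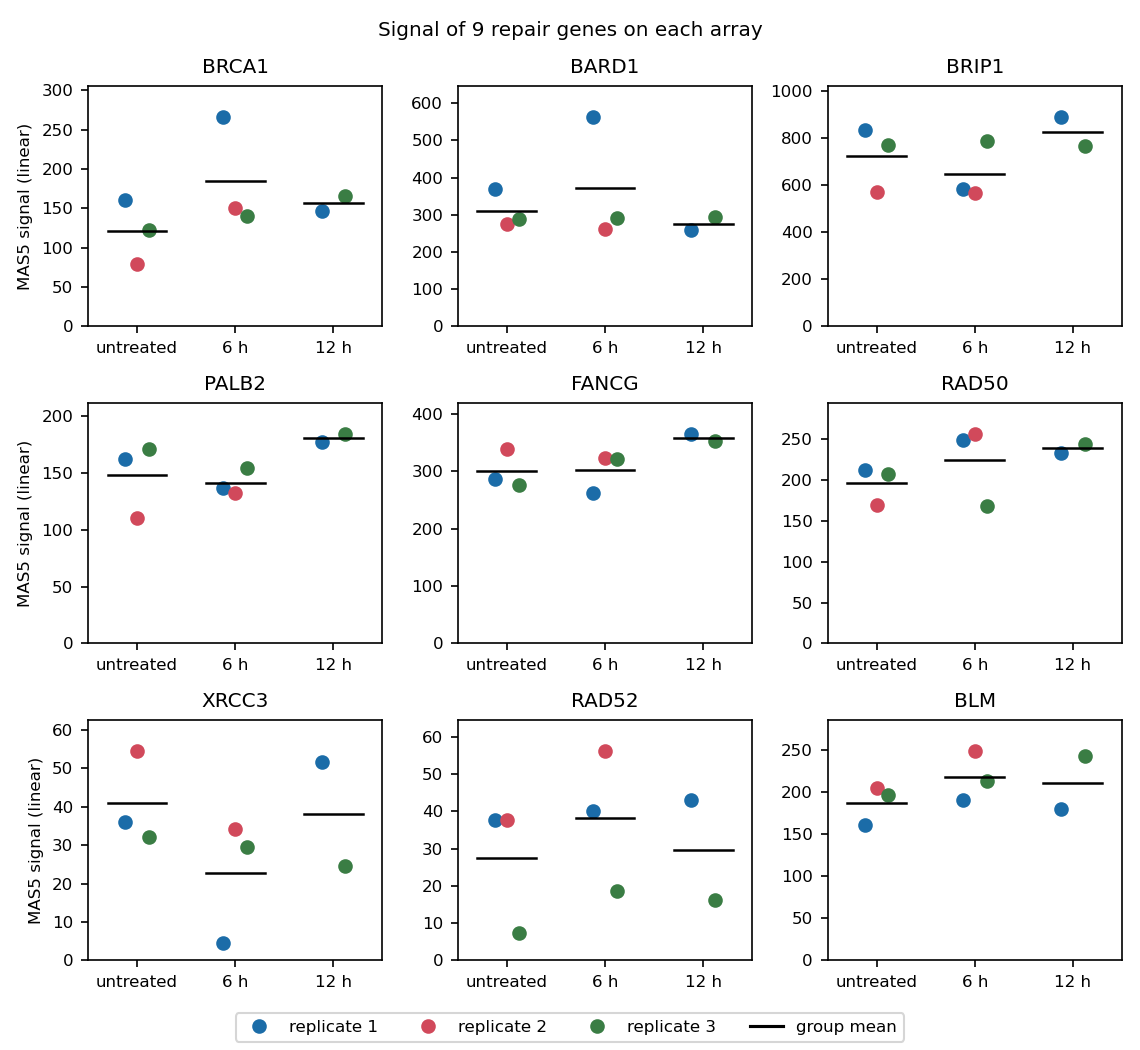
MAS5 signal (linear axis from 0) of the 9 members named by rank in the comparisons; points are arrays, coloured by replicate number, and black lines are group means. The 12 h points of PALB2 and FANCG lie above all other arrays, and the low 6 h point of XRCC3 is a single array at 4.51.

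At 12 h more repair genes were above untreated cells than below, and so were genes in general. The difference was above 0 in 20 of 27 genes, with a median of 0.13 and a range of -0.55 to 0.43, against 59.9% above 0 and a median of 0.08 for all genes. With the replicate block the median of the repair genes was 0.03 and 16 of 27 were above 0. Within replicate 1 the median was 0.04 (15 of 27 above 0), and within replicate 3 it was -0.01 (13 of 27). Without both replicate 2 arrays it was 0.03. Limma called 0 of 27 at an adjusted p under 0.05, as for 0% of all genes (smallest adjusted p = 0.99994). The unadjusted threshold of 0.05 was met by 0 of 27, against 0.613% of all genes. FANCG, PALB2 and RAD50 had both 12 h arrays above all untreated arrays, 3 of 27 beside 9.6% of all genes. None had both below, against 4.89% of all genes. The share of 3 in 27 is close to that background.

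PALB2, the bridge between BRCA1 and BRCA2, gave 163, 110.4 and 171 untreated and 178 and 184 at 12 h, or 148 ± 33.0 (SD, n = 3) against 181 ± 4.68 (SD, n = 2). The 12 h arrays were the 2 highest of all 8. The log2 difference was 0.31 ± 0.32 SE (95% interval -0.37 to 0.99, limma adjusted p = 0.99994). Untreated replicate 2 was the low array, and without it the difference was 0.11.

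FANCG, a core complex scaffold, gave 286, 339 and 275 untreated and 364 and 352 at 12 h, or 300.1 ± 34.1 (SD, n = 3) against 358 ± 8.56 (SD, n = 2). Here too the 12 h arrays were the 2 highest of all, although the gap to the highest untreated array was small. The difference was 0.26 ± 0.27 SE (95% interval -0.32 to 0.84, limma adjusted p = 0.99994), and 0.35 and 0.36 within replicates 1 and 3.

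RAD50, the coiled-coil ATPase that tethers DNA ends, gave 213, 169 and 208 untreated, 249, 256 and 168 at 6 h, and 234 and 244 at 12 h. The 12 h arrays lay above the untreated arrays but within the 6 h arrays. The 12 h difference was 0.29 ± 0.30 SE (95% interval -0.36 to 0.94, limma adjusted p = 0.99994), and 0.18 without untreated replicate 2. Its other probe sets went the opposite way: they differed by -0.29 and -0.50. In the latter, signals were 49.1, 104.4 and 60.8 untreated and 49.7 and 46.0 at 12 h, with untreated replicate 2 the highest of these. By group means, the direction for RAD50 thus depends on the probe set.

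BRCA1 gave 147 and 166 at 12 h, the first within the span of the untreated arrays and the second just above their highest. The difference was 0.43 ± 0.39 SE (95% interval -0.41 to 1.27, limma adjusted p = 0.99994), but -0.13 within replicate 1 and 0.44 within replicate 3, so the same-numbered arrays differed in sign. Without untreated replicate 1 it was 0.67, and without untreated replicate 2 it was 0.15. The dimmer BRCA1 probe set gave -0.19.

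By group means, all 4 end-binding and resection genes were above 0 at 12 h, beside 59.9% of all genes. NBN, the subunit that recruits ATM, was at 0.01 and RAD50 was the highest. With the replicate block RAD50 was at 0.29, EXO1 at 0.14, MRE11 at -0.004 and NBN at -0.007. Of the core complex 3 of 5 were above 0 (FANCC, FANCG and FANCL), and of the strand exchange genes 4 of 7 (RAD51C, RAD52, RAD54B and XRCC2). FANCI, which is marked by the core complex, was at 0.16 ± 0.28 SE. In the checkpoint group 4 of 5 were above 0, ATM at 0.26 ± 0.31 SE among them, and CLSPN had the lowest difference of all members at -0.55 ± 0.68 SE. Within replicate 1 its difference was -1.22 and within replicate 3 it was 0.97. By group means EXO1, FANCL, RAD54B, CHEK1 and TOPBP1 were above 0, but each was lower in both same-numbered pairs. The 12 h group has no replicate 2 array.

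**Figure D3:**
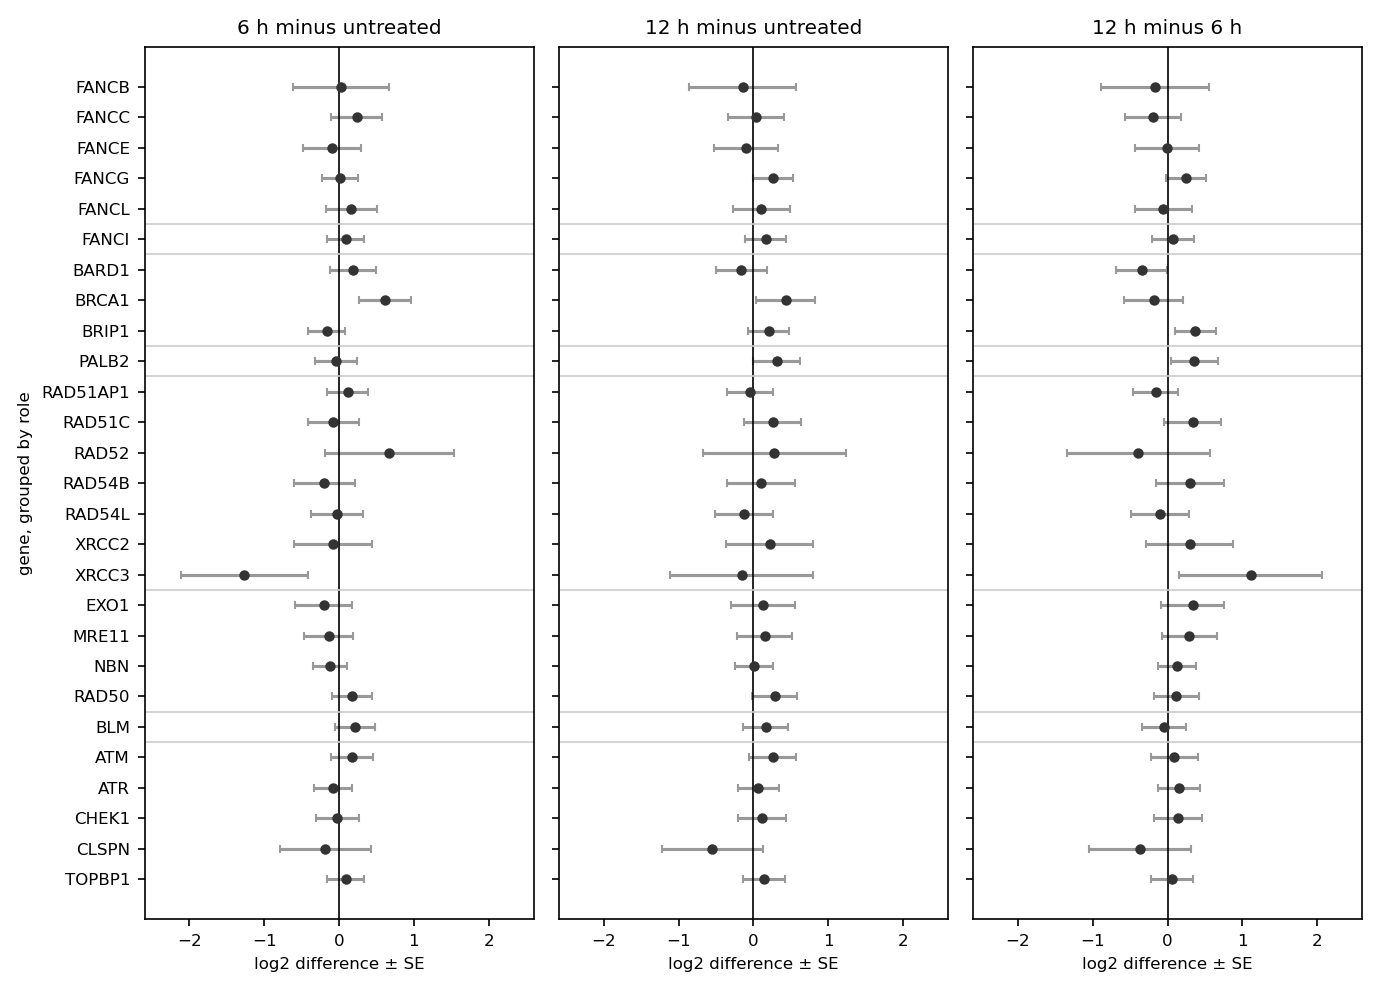
Log2 difference of each of the 27 repair genes, with its standard error from limma, in the 3 comparisons; genes are grouped by role and the vertical line marks 0. No difference exceeded 2 standard errors, and the widest bars are those of XRCC3, RAD52, FANCB and CLSPN.

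Between 6 h and 12 h of treatment 16 of 27 repair genes were above 0, with a median of 0.09 and a range of -0.39 to 1.11, against 57.2% above 0 and a median of 0.06 for all genes. Limma gave 0 of 27 at an adjusted p under 0.05, as for 0% of all genes (smallest adjusted p = 0.99998). Without adjustment 0 of 27 lay under 0.05, against 0.73% of all genes. Both 12 h arrays lay above all 6 h arrays in FANCG and PALB2, 2 of 27 beside 7.1% of all genes, and below them in none, against 4.5%. This comparison shares its 12 h arrays with the one before and its 6 h arrays with the first.

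BRIP1, the helicase that partners BRCA1, had the smallest p here. Its 6 h signals were 584, 569 and 791 and its 12 h signals 890 and 769, with 834, 574 and 772 untreated. The 6 h and 12 h arrays overlapped, since 6 h replicate 3 lay above 12 h replicate 3. The difference was 0.37 ± 0.27 SE (95% interval -0.22 to 0.96, limma adjusted p = 0.99998). The other BRIP1 probe set differed by -0.09, and its 12 h arrays lay far apart at 243 (replicate 1) and 532 (replicate 3).

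PALB2 gave 137, 133 and 154 at 6 h, below both 12 h arrays, and differed by 0.36 ± 0.32 SE (limma adjusted p = 0.99998). XRCC3 differed by 1.11 ± 0.95 SE (limma adjusted p = 0.99998), with 51.8 and 24.7 at 12 h, and by 0.17 without the 6 h replicate 1 array. BARD1, the ubiquitin ligase partner of BRCA1, gave 562, 262 and 292 at 6 h and 260 and 293 at 12 h. Only 6 h replicate 1 was high, and the difference of -0.35 ± 0.34 SE (limma adjusted p = 0.99998) was -0.004 without it. Both other BARD1 probe sets were also highest on that array, at 598 and 133.

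Same-numbered arrays offer a view that does not mix replicate numbers. At 6 h, 4 of 27 repair genes were higher in all 3 pairs (BLM, BRCA1, FANCC and RAD52), against 13.6% of all genes, and 3 were lower in all 3 (MRE11, RAD54B and XRCC3), against 10.4%. For FANCC, a core complex subunit, the signals were 68.5, 94.9 and 65.9 untreated and 86.2, 104.4 and 77.7 at 6 h. At 12 h, 7 of 27 were higher in both pairs (ATM, BLM, FANCC, FANCG, PALB2, RAD50 and RAD52), against 34.0% of all genes, and 6 lower in both (CHEK1, EXO1, FANCL, RAD51AP1, RAD54B and TOPBP1), against 25.0%. From 6 h to 12 h, 6 were higher in both pairs (ATR, CLSPN, FANCB, FANCG, PALB2 and RAD51C), against 26.0%, and 2 lower (FANCE and FANCL), against 23.6%.

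**Figure D4:**
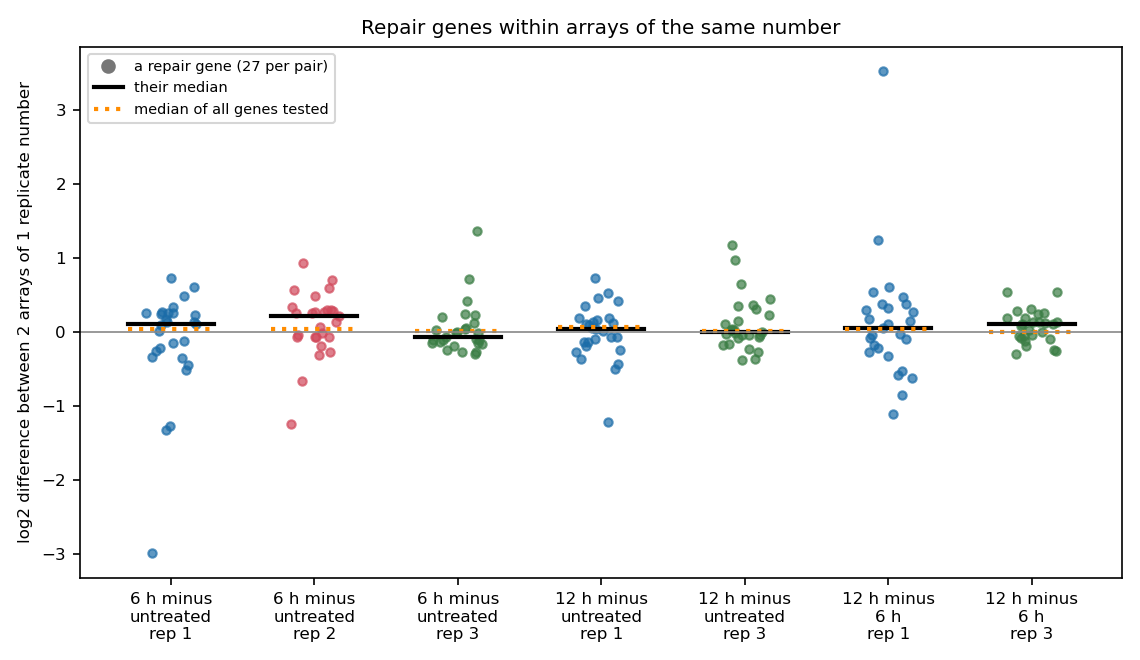
Log2 difference between 2 arrays of the same replicate number; each point is 1 of the 27 repair genes, the black line is their median and the dotted line the median of all 12063 genes. The medians of the repair genes lie between -0.07 and 0.21, and XRCC3 is the lone point at -3.00 in the first column and at 3.52 in the sixth.

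Several probe sets of a gene often went different ways. Of the 14 members with further probe sets above the filter, all of them had the sign of the brightest in 6 genes at 6 h and in 2 at 12 h, and none of them had it in 3 and 7 genes. From 6 h to 12 h these counts were 8 and 3. MRE11, the nuclease subunit, was at 0.15 at 12 h by its brightest probe set and at -1.35 and -1.24 by its other 2. Those 2 were dim, with 10.8 and 6.26, and 8.17 and 37.1, on the 12 h arrays.

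The other members with a probe set against the brightest are given by those log2 differences, without a test. At 6 h these were ATR at 0.45 (brightest -0.08), FANCC at -0.54 (0.24), ATM at -0.69 (0.17), FANCI at -0.19 (0.09), MRE11 at 0.48 (-0.14), NBN at 0.02 (-0.13) and CLSPN at 0.26 and 0.03 (-0.18). At 12 h against untreated they were BRIP1 at -0.38 (0.21), FANCC at -1.40 (0.04), RAD51C at -0.01 (0.26), ATM at -0.34 (0.26), CHEK1 at -0.06 (0.12) and FANCI at -0.40 (0.16). BARD1 was at 0.15 and 0.46 (-0.16), CLSPN at 0.89 (-0.55) and NBN at -0.23 and -0.05 (0.01). Between 6 h and 12 h they were RAD50 at -0.60 and -0.71 (0.12), MRE11 at -1.83 and -0.40 (0.29), FANCI at -0.21 (0.08), NBN at -0.13 and -0.07 (0.13) and CLSPN at 0.63 (-0.37). All of these are differences of group means without the replicate number, and the 12 h group has no replicate 2 array. The FANCC probe set at -1.40, for example, gave 32.4, 167 and 8.20 untreated and 18.2 and 9.84 at 12 h. By group means alone, the direction of these genes depended on the probe set.

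A list of 70 other genes of recombination, crosslink repair and fork protection was examined beside the members, and 65 were measured. At 6 h 30 of 65 were above 0 (median -0.04), at 12 h 43 of 65 (median 0.09) and from 6 h to 12 h 44 of 65 (median 0.11), with 0 called by limma at an adjusted p under 0.05 in each. With the replicate block 36 of 65 were above 0 at 12 h (median 0.01) and 35 of 65 from 6 h to 12 h (median 0.03). Within replicates 1 and 3 the counts were 35 and 35 of 65 at 12 h, and 28 (median -0.08) and 37 (median 0.02) from 6 h to 12 h. At an unadjusted p under 0.05 the counts were 1, 0 and 0 of 65, against 0.655%, 0.613% and 0.73% of all genes. With the block they were 1, 0 and 3 of 65, against 493, 262 and 297 of all 12063 genes. The 3 were MDC1, EME2 and H2AX, the last named after its values were seen, each with a limma adjusted p = 0.972. UHRF1, a reader of histone marks and hemimethylated DNA that also binds crosslinks, was the gene at 6 h in both fits. It gave 1214, 1385 and 1068 untreated and 714, 763 and 936 at 6 h, so that all 6 h arrays were lower. Its difference was -0.61 ± 0.23 SE (limma adjusted p = 0.99989). All 6 h arrays were lower in 1 of the 65 genes, against 1.51% of all genes, and higher in 0, against 2.03%. SWSAP1, a gene of strand exchange, was at -0.96 ± 0.63 SE, and ERCC1, a subunit of the crosslink nuclease, at -0.37 ± 0.27 SE. Without 6 h replicate 2 they were at -0.46 and -0.22, and SWSAP1 was at -1.49 without 6 h replicate 3.

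At 12 h MCM9, a helicase of recombination, differed from untreated by -0.59 ± 0.35 SE, the nuclease partner EME2 by -0.97 ± 0.66 SE and the fork protection gene TIMELESS by 0.35 ± 0.25 SE. EME2 gave 50.6 and 11.3 at 12 h against 40.7 to 54.1 untreated, so its value rests on replicate 3: without that array it was 0.11, and without 12 h replicate 1 it was -2.06. From 6 h to 12 h ERCC1 differed by 0.58 ± 0.30 SE, the damage mediator MDC1 by 0.48 ± 0.25 SE and EME2 by -1.20 ± 0.66 SE. Without 12 h replicate 3 the latter was -0.12, and without 12 h replicate 1 it was -2.29. None of these passed limma's adjusted threshold. Both 12 h arrays lay above all 6 h arrays for ERCC1 and MDC1, and the EME2 arrays overlapped. Of the 65 genes, 5 had both 12 h arrays above all 6 h arrays, against 7.1% of all genes. Both lay below in 2 (WRN and POLQ), against 4.5%.

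Because many repair genes follow the cell cycle, 20 proliferation genes (MKI67, TOP2A, PCNA and others) were read on the same arrays. Their log2 difference was above 0 in 7 of 20 at 6 h (median -0.05), in 19 of 20 at 12 h (median 0.17, or 0.10 with the replicate block) and in 20 of 20 from 6 h to 12 h (median 0.21, or 0.11 with the block). Of all genes, 53.0%, 59.9% and 57.2% were above 0 in these comparisons. Within same-numbered arrays the 6 h counts were 8, 9 and 10 of 20 in replicates 1 to 3 (medians -0.19, -0.05 and -0.02). The 12 h counts were lower than by group means: 14 of 20 in replicate 1 (median 0.09) and 9 of 20 in replicate 3 (median -0.03). So were those from 6 h to 12 h, at 16 of 20 (median 0.25) and 10 of 20 (median -0.003). The 12 h group has no replicate 2 array. Limma called 0 of 20 in each comparison, whether p was adjusted or not, at 0.05. Among all genes 0% passed with adjustment, and 0.655%, 0.613% and 0.73% without it. Their summed signal ranged from 16587 to 24457 untreated, from 17277 to 23537 at 6 h and from 22102 to 23967 at 12 h, with all 20 genes above the filter. Their part in the values of the repair genes was not tested.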

How the data were processed

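The authors deposited MAS5 signals, a linear intensity per probe set, for 8 single-channel Affymetrix arrays of Saos-2 RNA. MAS5 is named per the submitters' processing notes; its version and settings are not given in the sources used here. Each array's trimmed mean was 100.01. Of 54675 probe sets, 62 controls were left out, 41091 had 1 gene symbol in the platform annotation, 1801 had several and 11721 were unlisted. Signals were floored at their 10th percentile (2.39) and taken to log2. The brightest probe set stood for a gene, and genes with a mean above the median of all probe sets (log2 4.22) were tested. Limma 3.58.1 in R 4.3.3 fitted 3 groups together (lmFit, eBayes with trend), with Benjamini-Hochberg adjustment over 12063 genes at 0.05. The fit was tested on simulated data.

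Whether the replicates are separate cultures is not in the labels; the p-values reflect only how these samples vary, which may be technical. All 7 pairs of arrays with the same replicate number had deviations correlated at 0.108 to 0.637, and the 14 other pairs at -0.576 to 0.333. On this basis same-numbered arrays were treated as pairs. Deviations from a group mean cancel within the group, which by construction lowers the other pairs. Replicate 1 pairs reached 0.108 to 0.163, while untreated replicate 2 with 12 h replicate 1 reached 0.333, so the basis is weak for replicate 1. A fit with the replicate block was an alternative. Precision is limited by the number of arrays. Statistics are given for the 4 members and 3 other pathway genes with the smallest unadjusted p in each comparison, and log2 differences alone for probe sets of a member that differ in sign; further members were named after their values were seen. The members, gene lists and motifs were chosen with earlier results of these data known. Settings that leave out arrays keep the probe sets and filter of all 8 arrays, a choice made after both versions had been seen.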

Additional observations from a re-analysis of the deposited data

How the results depend on the processing

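Under 19 other ways of processing or fitting and 4 chosen after seeing the data (leaving out both replicate 2 arrays and limma's array weights, each with and without the replicate block), limma called 0 members, 0 other pathway genes and 0 of all genes in every comparison. The replicate block changed no call: it left the members' median at -0.02 at 6 h and gave 0.03 at 12 h against untreated and 0.07 against 6 h, while genes at an unadjusted p under 0.05 went from 79 to 493, from 74 to 262 and from 88 to 297. The lowest adjusted p of a member in any setting was 0.523 (FANCG at 12 h, array weights with the block). Unadjusted p-values under 0.05 were reached by 1 member in 4 settings: BRCA1 with the block and without untreated replicate 1, XRCC3 under centring and FANCG as above. In the same settings and comparisons, in this order, 493, 70, 237 and 1087 of 12063 genes were under it. Choosing probe sets again after leaving out arrays also brought FANCB there in 2 settings of 12 h against 6 h.

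Centring each array on its median gave members' medians of 0.71 at 12 h against untreated and 0.68 against 6 h, with BARD1 at 0.24 in the latter. By construction it shifts all genes alike, so the members' medians relative to all genes stayed at 0.04 and 0.03. The mean of all probe sets gave -0.17 for RAD50 and -0.030 for TIMELESS at 12 h, and choice by probe set suffix gave -0.50 and -0.41. Leaving out single arrays gave -0.12 to 1.12 for RAD52 at 6 h and -2.06 to 0.11 for EME2 at 12 h. With a 12 h array left out, the lone array is assumed to vary like the other groups. Across those of the 23 alternatives that held the gene, 5 of 27 members kept their sign at 6 h (BLM, BRCA1, BRIP1, NBN and XRCC3). The sign was kept by 3 at 12 h (BRCA1, FANCG and PALB2) and by 5 between 6 h and 12 h (BRIP1, FANCG, PALB2, RAD51C and XRCC3). Centring put 27 of 27 members above 0 in both 12 h comparisons, so it turned every member below 0 there. The same count over all genes was not made. The filter at the 75th percentile left out XRCC3. With 2 or 3 arrays a group, the median SE of 0.33 to 0.36 limits what could be seen.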
